A study of Mus musculus with 2 samples.

Results

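The skeletal myosin heavy chain cluster of mouse chromosome 11 holds 6 genes in a row, Myh3, Myh2, Myh1, Myh4, Myh8 and Myh13. They were chosen by gene symbol and not by a measured value, though with earlier results of these data known. They are 6 of the 55536 Ensembl genes in the tables, with 20 of the 141864 annotated transcripts. Their levels were measured by total RNA-seq in gastrocnemius, the superficial muscle of the calf. The tissue came from 2 male mice of strain B6CASTF1/J, the F1 hybrid of C57BL/6 and CAST, at 36 days of age, with no treatment or mutation named. Per the labels, both libraries were stranded, depleted of ribosomal RNA, spiked with ERCC RNAs and made from 300 ng of column-purified RNA. The labels give the mice different numbers and biosamples but the same donor entry, so the spread between the libraries may be partly technical. One group of 2 animals allows no test, so no p-value is given and every value is given per animal or as mean ± SD (n = 2). The files do not separate the C57BL/6 and CAST alleles.

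A myosin heavy chain is the motor of the thick filament: its head binds actin and hydrolyses ATP, and its long coiled-coil tail packs into the filament. Each muscle fibre is classed by the heavy chain it makes. Of the clustered genes, Myh4, Myh1 and Myh2 encode the adult fast chains of type IIB, IIX and IIA fibres, in falling order of speed. Myh3 and Myh8 encode the embryonic and perinatal chains, which growing limb muscle replaces with adult ones, and Myh13 encodes a very fast chain known from the extraocular and laryngeal muscles. The gastrocnemius of rodents is a mainly fast muscle.

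All 6 genes lie on the plus strand of mm10 within 293287 bases. In order, they are Myh3 (chr11:67078300-67102291), Myh2 (chr11:67171027-67197517), Myh1 (chr11:67200052-67224575), Myh4 (chr11:67238029-67260446), Myh8 (chr11:67277124-67308634) and Myh13 (chr11:67321658-67371586). Myh2 and Myh1 are separated by only 2534 bases, whereas 68735 bases lie between Myh3 and Myh2. The gaps on either side of Myh4 are 13453 bases towards Myh1 and 16677 towards Myh8, and 13023 bases separate Myh8 from Myh13.

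The coding sequences show how alike these neighbours are, and thus how far short reads can be told apart between them. In GENCODE M21, Myh2 and Myh1 were identical at 91.1% of aligned coding bases, and Myh1 and Myh4 at 90.2%. Myh8 stood close to the adult genes, at 89.3% with Myh1, 89.3% with Myh2 and 87.9% with Myh4. Myh3 and Myh13 were the most distant members, each between 77.6% and 81.1% identical to any other. The stretch of 60 coding bases on which the 6 genes were most alike lies in the tail, within 1 exon of every gene, and is printed here 5′ to 3′ with capitals at bases that differ from Myh4. It lies at chr11:67253427-67253486 in Myh4, on the plus strand. All 60 bases were identical in Myh2, Myh1, Myh4 and Myh8, while Myh3 and Myh13 each differed from Myh4 at 1 base.

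Myh3: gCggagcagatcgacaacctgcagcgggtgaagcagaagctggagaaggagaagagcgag
Myh2: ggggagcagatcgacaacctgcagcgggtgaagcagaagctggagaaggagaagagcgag
Myh1: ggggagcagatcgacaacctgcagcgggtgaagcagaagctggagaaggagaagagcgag
Myh4: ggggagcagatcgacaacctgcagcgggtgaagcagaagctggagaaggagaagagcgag
Myh8: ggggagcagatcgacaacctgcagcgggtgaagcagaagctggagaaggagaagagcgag
Myh13: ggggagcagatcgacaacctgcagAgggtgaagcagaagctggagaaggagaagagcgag

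The stretch of 60 coding bases on which they were least alike lies near the start of the coding sequence, at coding bases 148 to 207 of Myh4, and crosses an exon junction in each gene. Here Myh1 differed from Myh4 at 3 bases, Myh2 at 19, Myh8 at 21, Myh3 at 26 and Myh13 at 27. In the same notation, with capitals at bases that differ from Myh4, these segments read as follows.

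Myh3: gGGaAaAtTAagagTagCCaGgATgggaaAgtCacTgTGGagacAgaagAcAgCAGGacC
Myh2: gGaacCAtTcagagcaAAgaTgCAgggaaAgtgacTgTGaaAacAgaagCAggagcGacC
Myh1: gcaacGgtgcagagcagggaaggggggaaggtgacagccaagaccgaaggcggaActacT
Myh4: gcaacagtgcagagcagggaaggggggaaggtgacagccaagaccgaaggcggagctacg
Myh8: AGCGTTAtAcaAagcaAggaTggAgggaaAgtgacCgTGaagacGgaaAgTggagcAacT
Myh13: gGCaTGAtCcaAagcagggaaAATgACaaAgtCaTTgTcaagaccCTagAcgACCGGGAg

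The longest uninterrupted run shared by Myh1 and Myh2 was 268 coding bases, at coding bases 2711 to 2978 of both genes. It is longer than the 161 bases shared by Myh4 and Myh1, the 146 shared by Myh4 and Myh2, the 164 shared by Myh4 and Myh8 or the 213 shared by Myh8 and Myh13. In the genome it spans chr11:67213219-67213597 in Myh1 and chr11:67188318-67188696 in Myh2, with introns left out, on the plus strand. A read of 100 bases from within it cannot be given to either gene by its letters.

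Myh1 and Myh2: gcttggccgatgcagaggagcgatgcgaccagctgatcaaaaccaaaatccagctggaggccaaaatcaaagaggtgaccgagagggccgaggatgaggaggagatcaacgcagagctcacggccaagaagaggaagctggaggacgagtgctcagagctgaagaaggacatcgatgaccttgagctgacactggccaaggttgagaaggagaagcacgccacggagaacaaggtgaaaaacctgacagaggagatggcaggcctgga

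Every annotated transcript was then split into all of its 100-base windows, the read length that the effective lengths of the first quantification imply. Of the distinct windows of Myh1, 9.24% also occurred in another member, as did 7.80% of those of Myh2, 3.85% of Myh4, 3.38% of Myh8, 3.38% of Myh13 and 1.13% of Myh3. The 11837 windows of Myh8, against 5917 of Myh4, include those of partial and intron-keeping transcripts. With 1 transcript a gene, the portion was 6.61% for Myh8-201, 3.85% for Myh4-201, 3.60% for Myh13-201, 9.73% for Myh1-203, 9.28% for Myh2-201 and 1.15% for Myh3-202. Most of the sharing of Myh1 was with Myh2, in 454 windows, against 159 with Myh8 and 133 with Myh4. No 100-base window of any member occurred in an annotated gene outside the cluster. At 31 bases the shared portion rose to 37.8% for Myh1, 32.7% for Myh2 and 30.4% for Myh4, so the separation of these genes depends on read length. These percentages describe the annotation and not the reads.

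**Figure D1:**
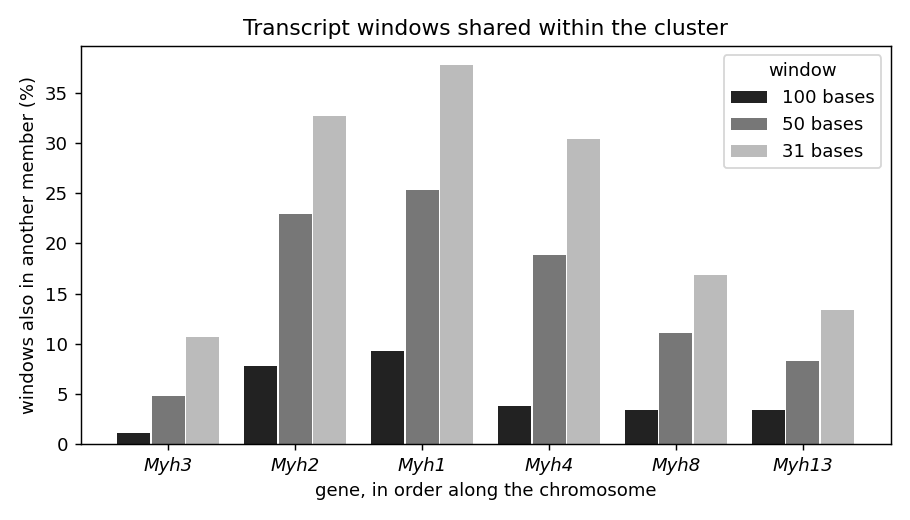
Percent of the distinct 100-, 50- and 31-base windows of each gene's annotated transcripts (y axis) that also occur in another member, by gene in chromosome order (x axis). At 100 bases the bars run from 1.13% for Myh3 to 9.24% for Myh1, and at 31 bases from 10.6% to 37.8%.

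The cluster as a whole took 6.30% of the 36952277 expected counts of replicate 1 (Wilson 95% interval 6.29 to 6.30) and 6.39% of the 38754338 of replicate 2 (6.38 to 6.39). Expected counts are reads assigned to a gene by a model, and need not be whole. In TPM, which scales by transcript length and so allows genes to be compared, the 6 genes summed to 12506 and 13241. This was 3.11% and 3.14% of the TPM of nuclear protein-coding genes. The 6 markers of adult skeletal muscle fibres were all well above 1 TPM, with summed levels of 84314 and 88398 TPM. These markers bear on skeletal muscle in general and cannot check which muscle was taken. Among them, Acta1, the skeletal actin, stood at 22669 and 25019 TPM.

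Myh4, the IIB gene, was the most abundant member by far. It had 10598 TPM in replicate 1 and 11754 TPM in replicate 2 (11176 ± 817), from 1980056 and 2203747 expected counts. It ranked 7 and 6 among nuclear protein-coding genes by TPM, and 14 among all genes in both animals. Both animals thus had Myh4 at the level of the leading muscle messenger RNAs, and the animals differed by 0.15 on the log2 scale.

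Myh1, the IIX gene, was the next most abundant and the least alike between the animals. It had 1300 TPM in replicate 1 and 839 TPM in replicate 2 (1070 ± 326), from 235501 and 153855 expected counts. Its rank among nuclear protein-coding genes was 24 in replicate 1 and 39 in replicate 2. Myh2, the IIA gene, had 499.5 and 519 TPM (509 ± 13.8), from 92490 and 96658 expected counts, and was nearly the same in both animals. The deposited posterior SD of the count, which covers read assignment only, was at most 127 reads for these 3 genes, far below the gap between the animals in Myh1.

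The developmental genes were present at lower and unequal levels. Myh8, the perinatal gene, had 102 TPM in replicate 1 and 124 TPM in replicate 2 (113 ± 15.8), from 17581 and 19612 expected counts. It ranked 430 and 365 among nuclear protein-coding genes. Myh3, the embryonic gene, had only 4.67 and 3.13 TPM (3.90 ± 1.09), from 874 and 584 expected counts. Myh8 was therefore 21.8 and 39.7 times as high as Myh3. Markers of immature or regenerating fibres summed to 928 TPM in replicate 1 and 1790 in replicate 2, of which Actc1, the cardiac actin also made by immature fibres, supplied 891 and 1767. Of the 7 markers of that list with a mean of at least 50 counts, 3 were higher and 4 lower in replicate 2. Myog, a myogenic factor, had 17.2 and 8.46 TPM, and Chrng, the fetal acetylcholine receptor subunit, 0.06 and 0.21 TPM.

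Myh13, the extraocular gene, was the lowest member. It had 1.48 TPM in replicate 1 and 1.43 TPM in replicate 2 (1.46 ± 0.0354), from 271 and 259 expected counts. These lie far above the 3 reads that a count of 0 would allow, but that floor covers counting only. Whether reads of the far more abundant members were wrongly assigned to Myh13 was not tested. The second quantification gave it 338 and 247 reads. The deposited posterior SD was 4.09% and 4.14% of the count, against at most 0.517% for every other member. Myh15, a slow chain also known from extraocular muscle, was listed at 0.01 and 0.00 TPM.

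**Figure D2:**
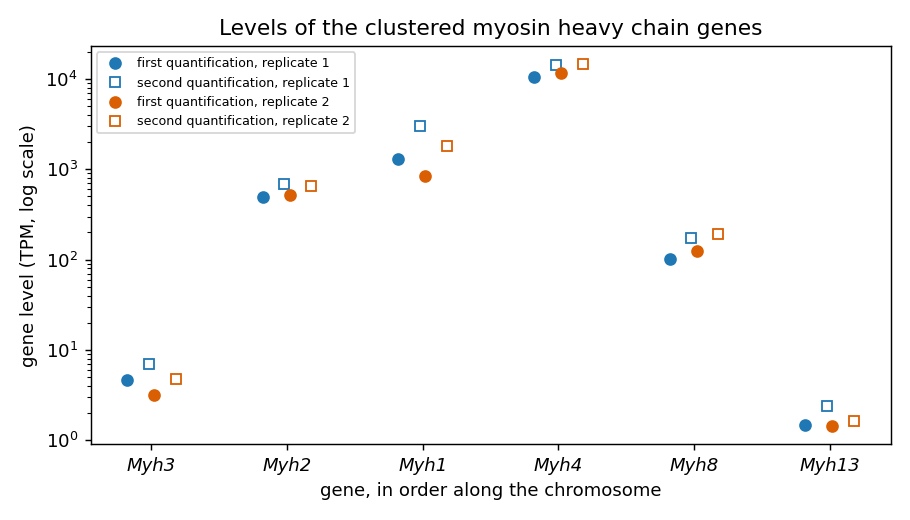
Gene level in TPM (y axis, log scale) of the 6 members in chromosome order (x axis), for the first quantification (filled circles) and the second (open squares) in replicates 1 and 2. Myh4 stands at 10598 and 11754 TPM and Myh13 at 1.48 and 1.43 TPM in the first quantification.

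The order Myh4, Myh1, Myh2, Myh8, Myh3, Myh13 was the same in both animals and in both quantifications. Neighbours in this order were separated by unequal steps. Myh4 was 8.15 and 14.01 times as high as Myh1, Myh1 was 2.60 and 1.62 times as high as Myh2, and Myh2 was 4.91 and 4.18 times as high as Myh8. Myh3 was 3.16 and 2.19 times as high as Myh13. No pair of neighbours overlapped between the animals, and the closest approach was Myh1 in replicate 2, at 839 TPM, over Myh2 in the same animal, at 519 TPM.

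As a portion of the cluster's summed TPM, Myh4 made up 84.7% in replicate 1 and 88.8% in replicate 2 (86.8% ± 2.85). Myh1 made up 10.4% and 6.34% (8.37% ± 2.87), and Myh2 made up 3.99% and 3.92%. The portion of Myh1 fell by 4.06 percentage points from replicate 1 to replicate 2, and that of Myh4 was 4.02 points higher. Myh8 held 0.814% and 0.938%, Myh3 0.0373% and 0.0236%, and Myh13 0.0118% and 0.0108%. Shares of counts in place of TPM moved these values little: Myh1 then held 10.1% (10.1 to 10.2) and 6.22% (6.19 to 6.25), the ranges being Wilson 95% intervals that cover counting only.

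Between the animals, the log2 ratio of replicate 2 over replicate 1 was taken on TPM + 0.1. It was -0.63 for Myh1, -0.56 for Myh3, -0.05 for Myh13, 0.06 for Myh2, 0.15 for Myh4 and 0.29 for Myh8. Of all 11632 genes with a mean expected count of at least 50, 10.5% differed by at least 1.5-fold either way, and 1 of the 6 members did, Myh1. Of the same genes 2.82% differed by at least 2-fold, and none of the 6 members did. Against that background, 1 of 6 is not a result about the cluster. Myh3 lay just inside the 1.5-fold line and passed it under other scalings, with -0.64 after rescaling over nuclear protein-coding genes and -0.62 in FPKM. The direction of Myh2 turned with the scaling, from 0.06 to -0.01 after rescaling and to -0.09 in the second quantification, where the median over all genes was -0.11 in place of 0.00.

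Markers of several other cell types and of slow fibres also differed between the animals, as measured beside the Myh1 gap. The 7 slow fibre genes summed to 331 TPM in replicate 1 and 581 in replicate 2, with 7 of 7 higher. Of these, 6 were higher by at least 1.5-fold, where 10.5% of all genes tested differed that far either way. Schwann cell markers summed to 343 and 75.1 TPM, with 5 of 5 lower. Fibroblast markers summed to 1726 and 892 TPM and tendon markers to 138 and 94.6 TPM, again with 5 of 5 lower in each list. Lower by at least 1.5-fold were 5 Schwann cell, 3 fibroblast and 3 tendon markers, against the same 10.5%. The median log2 ratio over all genes tested was 0.00. The remaining lists had smaller sums. Macrophage markers summed to 17.6 and 10.8 TPM, adipocyte markers to 25.2 and 42.9, and endothelial markers to 42.5 and 44.3. Satellite cell markers summed to 44.6 and 25.6 TPM, of which Sdc4 alone supplied 39.1 and 20.4. Of the 3 satellite cell markers with a mean of at least 50 counts, 1 was higher and 2 lower in replicate 2. The 5 genes of muscle spindles summed to 10.89 and 19.97 TPM, of which Myh6, the alpha cardiac chain, alone supplied 8.19 and 16.41. Egr3 was lower in replicate 2, at 0.18 and 0.09 TPM. No gene of these lists was listed at 0 in both animals. Their part in the Myh1 gap was not tested. In bulk tissue, fewer IIX fibres and less Myh1 RNA per fibre cannot be told apart.

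The submitters deposited 2 quantifications of the same reads, which divided the cluster's reads almost alike. By estimated counts, the second gave Myh4 2084400 and 2275310 reads, 1.05 and 1.03 times the first. For Myh1 the second count was 1.08 and 1.07 times the first, and for Myh2 1.09 and 1.05 times. The low members moved more, with 1.14 and 1.15 times for Myh8, 1.15 and 1.28 for Myh3, and 1.25 and 0.953 for Myh13. Myh1 held 10.3% and 6.40% of the cluster's reads in the second quantification, against 10.1% and 6.22% in the first. As a portion of the reads of all nuclear protein-coding genes, the log2 ratio of second over first was 0.01 and 0.02 for Myh1. It was -0.02 in both animals for Myh4, against a median over 10939 genes of 0.03 in both. For the 3 adult genes, then, the choice of quantification moved the reads per gene by at most 1.09 times.

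In TPM the quantifications did differ, above all for Myh1. Its second TPM was 3043 and 1809, so that its portion of the cluster became 16.6% and 10.4% (13.5% ± 4.38) and that of Myh4 78.5% and 84.6%. After both were rescaled over nuclear protein-coding genes, the log2 ratio of second over first was 0.47 and 0.46 for Myh1. For Myh4 it was -0.32 and -0.34, for Myh2 -0.28 and -0.32, and for Myh8 0.03 and -0.03. Myh3 had -0.18 and -0.04, and Myh13 -0.07 and -0.44. The median over 10939 genes was -0.15 and -0.16. Only 2.72% of those genes had a ratio at least as high as Myh1 in both animals. By the rule of at least 1.5-fold the same way in both libraries, 3.93% of genes were called and none of the 6 members was. With TPM as deposited, all 6 ratios were positive, at 1.23 and 1.11 for Myh1 and 0.44 and 0.32 for Myh4, against medians of 0.59 and 0.47.

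**Figure D3:**
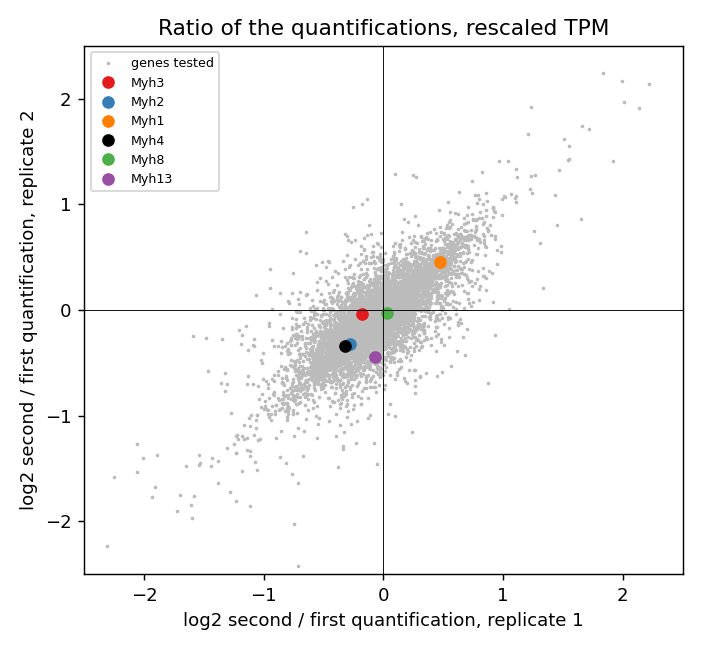
Log2 ratio of second over first quantification, in TPM rescaled over nuclear protein-coding genes, in replicate 1 (x axis) and replicate 2 (y axis), for 10939 genes (grey) and the 6 members (coloured). 46 genes lie outside the axes. Myh1 sits at 0.47 and 0.46, apart from Myh4 at -0.32 and -0.34.

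The higher second TPM of Myh1 lay in a single short transcript. Myh1-204 (chr11:67200138-67202255) is annotated as a 631-base transcript of 3 exons at the 5′ end of the gene, against 5938 to 6081 bases for the 3 full-length forms. The first quantification gave it 841 and 404 counts, and the second gave it 10223 and 6239. Its effective length, the number of start positions a fragment can have, was 532 bases in the first and 296.4 and 291.4 in the second. A given number of reads therefore weighed more in TPM there, and Myh1-204 reached 1350 and 783 TPM, 44.4% and 43.3% of the Myh1 total, on 4.03% and 3.80% of the gene's reads. Without Myh1-204 in the second TPM, Myh1 held 8.11% ± 2.68 of the cluster and Myh4 86.7% ± 2.71, near their first-quantification values. The rescaled log2 ratio of Myh1 then fell from 0.47 and 0.46 to -0.38 and -0.36, on the side of Myh4 and Myh2. That recalculation was chosen after the transcript's values had been seen.

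**Figure D4:**
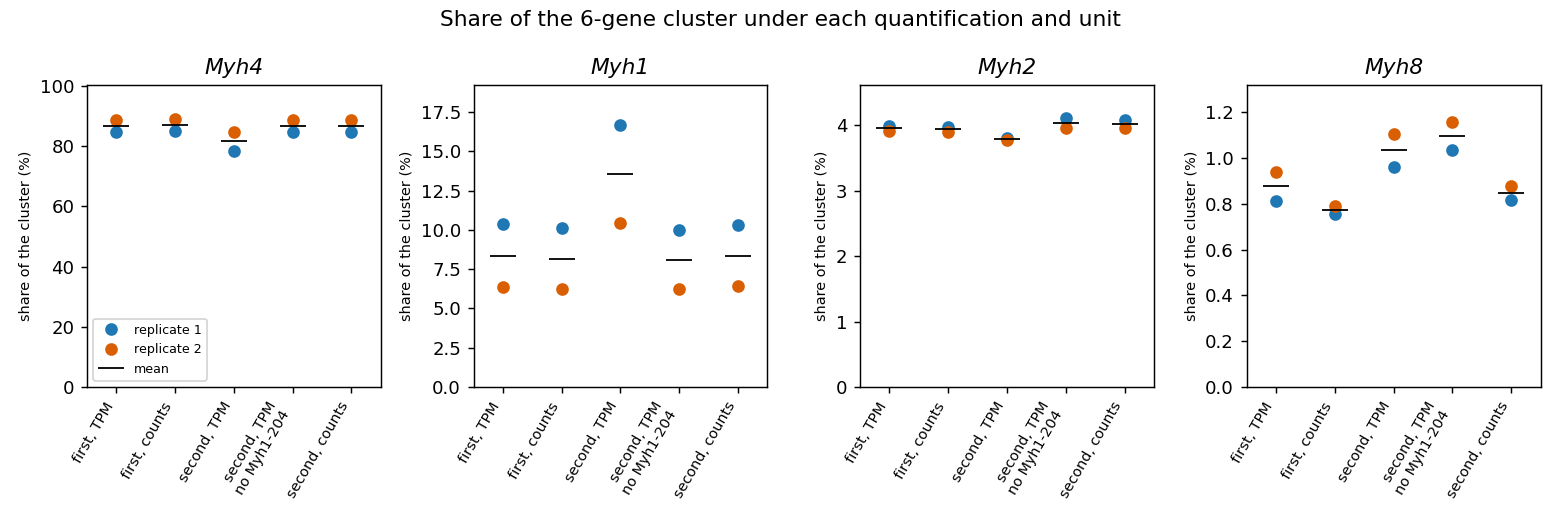
Portion of the cluster's total (y axes, percent, each from 0) held by Myh4, Myh1, Myh2 and Myh8 in replicate 1 (blue) and replicate 2 (orange), with the mean (line), under each quantification and unit (x axis). Myh1 stands at 16.6% and 10.4% in the second TPM and has a mean of 8.11% without Myh1-204.

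Transcript portions depended on the quantification for every member but Myh4. Of the 20 annotated transcripts, 15 reached a mean of 1 TPM in either table, and 1 of the 6 genes had the same leading transcript in both tables and both animals. That gene was Myh4, with all of its TPM on Myh4-201 (100% in each case after rounding). The other Myh4 transcript contains no 100-base window of its own.

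For Myh1 the first table gave Myh1-203 52.7% and 47.8% of TPM, Myh1-202 36.4% and 42.2%, Myh1-201 7.05% and 7.10% and Myh1-204 3.85% and 2.86%. The second gave Myh1-204 44.4% and 43.3%, Myh1-201 36.9% and 39.8%, Myh1-202 18.4% and 16.2% and Myh1-203 only 0.344% and 0.821%. Within each table the animals differed by at most 5.84 percentage points, whereas the tables had different leaders. The 3 full-length forms have the same coding length of 5826 bases and differ outside it. Myh1-202 had no 100-base window of its own, Myh1-201 had 45 and Myh1-203 had 73, out of 5839 to 5982. Myh1-204 had 266 of its own out of 532.

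Myh2 showed the same reversal, with Myh2-201 at 88.1% and 87.6% in the first table and Myh2-203 at 65.4% and 71.4% in the second. Both encode a coding sequence of 5826 bases, and Myh2-201 had no window of its own against 42 for Myh2-203. Myh2-202, a transcript that keeps an intron, stayed at 1.37% and 1.09% in the first table and 1.48% and 1.31% in the second. Of its windows, 75.9% were its own.

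For Myh8, the full-length Myh8-201 held 84.8% and 72.3% in the first table, with the rest on the truncated Myh8-202. In the second table Myh8-201 held 52.7% and 47.0%, and Myh8-203, a transcript that keeps an intron, held 47.2% and 52.9%. The first table gave Myh8-203 no reads, and the second gave Myh8-202 only 3.26 and 3.86 reads. In reads, Myh8-201 had 16505 and 17205 in the first table and 13750 and 14291 in the second, or 0.833 and 0.831 times as many. The first table gave Myh8-202 1075 and 2407 reads, and the second gave Myh8-203 6319 and 8254. The second table thus had fewer reads on the full-length form and more on partial transcripts in both animals.

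The split of the low members changed with both the animal and the table. Myh3-202 led in replicate 1 at 82.4% and Myh3-201 in replicate 2 at 80.8% in the first table, whereas the second put Myh3-201 ahead in replicate 1 at 44.5% and Myh3-202 in replicate 2 at 59.4%. Myh3-201, Myh3-202 and Myh3-203 had 31, 75 and 35 windows of their own, and the gene had at most 1008 reads in either table. Myh13-201 took 47.3% and 100% of the gene's TPM in the first table and 59.6% and 90.9% in the second, with no 100-base window of its own.

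**Figure D5:**
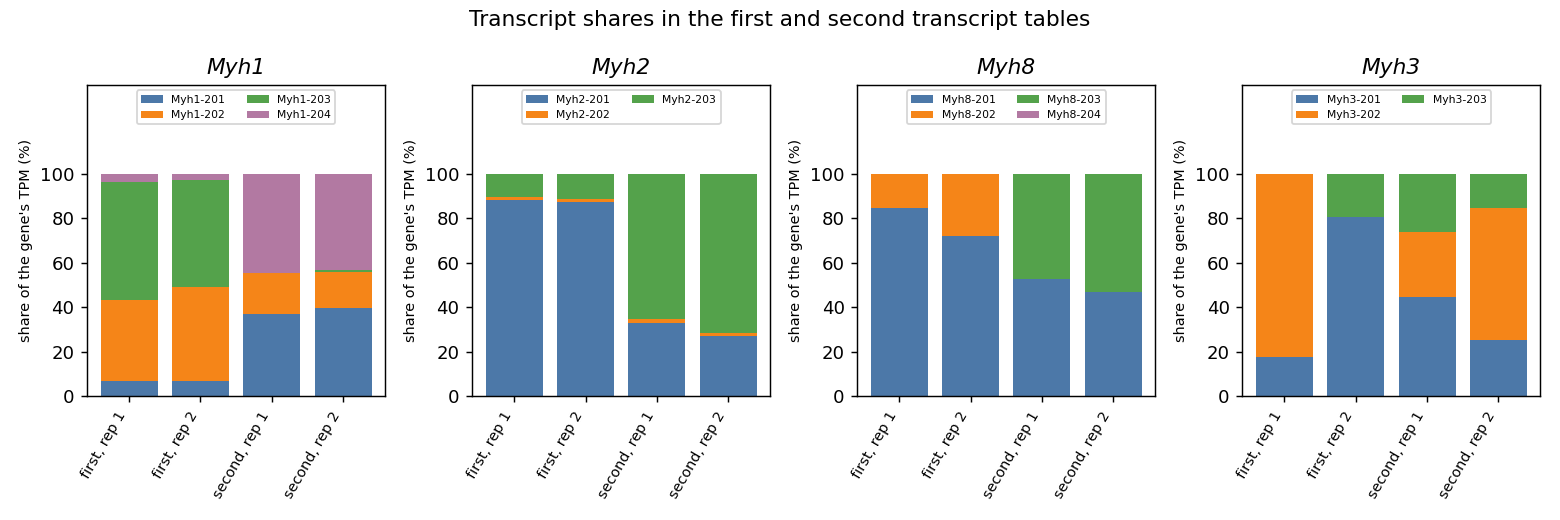
Portion of each gene's TPM (y axes, percent) carried by each annotated transcript (colours) of Myh1, Myh2, Myh8 and Myh3, in the first and second tables and replicates 1 and 2 (x axis). Myh1-203 falls from 52.7% to 0.344% and Myh1-204 rises from 3.85% to 44.4% between the tables in replicate 1.

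The RefSeq promoters of the 3 adult genes share sequence that was absent from the RefSeq promoters of the other members. In RefSeq promoters of GRCm38.p6, which cover 250 bases before to 50 after each start, the longest run common to Myh2, Myh1 and Myh4 was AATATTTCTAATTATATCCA, and all 6 members had an entry. Searched on both strands, this run occurred in 3 of 32851 promoters (0.00913%), those of Myh2, Myh1 and Myh4. Its first base lay 130, 165 and 163 bases before the start of Myh2, Myh1 and Myh4. These 80-base windows on the plus strand, with the shared run in capitals, are chr11:67170867-67170946 for Myh2, chr11:67199907-67199986 for Myh1 and chr11:67237619-67237698 for Myh4.

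Myh2: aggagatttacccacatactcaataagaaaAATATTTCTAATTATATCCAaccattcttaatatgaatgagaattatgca
Myh1: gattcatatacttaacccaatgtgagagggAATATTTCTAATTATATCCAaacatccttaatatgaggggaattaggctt
Myh4: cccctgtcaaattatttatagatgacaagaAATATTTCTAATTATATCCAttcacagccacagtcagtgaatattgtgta

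The run was picked because these promoters share it, and a match is a description of letters only. The genes that carry it had unequal levels, with means of 11176 TPM for Myh4, 1070 for Myh1 and 509 for Myh2. The TATA-like motif TATAAAAG was in 560 of 32851 promoters (1.70%). It lay 29 bases before the start in Myh3, 32 in Myh1 and 31 in Myh4, and 10 bases after the RefSeq start in Myh2. Neither Myh8 nor Myh13 had it in this window. The RefSeq start of Myh13 lies 5445 bases beyond the GENCODE one, so the sequence before its GENCODE start was not searched for either motif. The RefSeq start of Myh4 lies upstream of the GENCODE one.

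Other annotated genes lie within the cluster's span, on the opposite strand where they were expressed. The lincRNA 2310065F04Rik (chr11:67112461-67120080), known as linc-MYH and placed between Myh3 and Myh2, had 28.3 and 29.0 TPM. The antisense gene Myhas (chr11:67211256-67237573), which overlaps Myh1 and begins just upstream of Myh4, had 29.86 and 26.02 TPM from 743 and 651 expected counts. Both exceeded Myh3 and Myh13 in each animal. The antisense gene 9430073C21Rik, which overlaps Myh2, had 0.51 and 0.34 TPM, and Mir6923 and Gm26476 were listed at 0. The libraries were stranded per the labels, but no header or label says how strand was used in the counting, so reads of Myhas and Myh1 may not be fully separated.

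Myosin heavy chains outside the cluster were minor by comparison. The 8 listed summed to 94.5 TPM in replicate 1 and 137 TPM in replicate 2, close to the 102 and 124 TPM of Myh8 alone. Myh7, the slow chain on another chromosome, had 38.3 and 78.5 TPM, and Myh9, a non-muscle chain, had 26.7 and 19.9 TPM. Among 7 partners of the fast thick filament, with sums of 35778 and 35690 TPM, Mylpf and Myl1, the fast regulatory and essential light chains, had 19627 and 18898 TPM and 12744 and 12722 TPM. Of the 7 partners, 1 differed by at least 1.5-fold, where 10.5% of all genes tested did. It was Mylk4, a kinase of the myosin light chain kinase family, at 397 and 723 TPM.

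Genes that fold or turn over myosin summed to 617 and 673 TPM, with 0 of 8 past 1.5-fold, where 10.5% of all genes tested were. Among them Smyd1, a partner of the myosin chaperones, had 132 and 148 TPM and Trim54, a ubiquitin ligase of the sarcomere, 124 and 149 TPM. Of 18 transcription regulators tied to the fast genes, 10 were higher and 8 lower in replicate 2, with sums of 721 and 687 TPM. Past 1.5-fold, 3 of the 18 were lower and none higher. Against the 10.5% of all genes, neither the 0 of 8 nor the 3 of 18 is a result about its list. Nfix, a regulator of the switch from fetal to adult myosins, had 175 TPM in both animals, and Mef2c, a muscle gene activator, had 129 and 134 TPM.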

How the data were processed

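Each library was deposited with 1 gene table and 2 transcript tables on mm10 with GENCODE M21 annotation, per the file headers and deposited notes. Aligner and quantifiers: not given in the sources used here. By its columns, the first quantification (gene and first transcript tables) looks like RSEM output and the second like kallisto output. Deposited were expected counts (reads assigned by a model), TPM over all listed features, FPKM, a percent of each gene per transcript, and a posterior SD of the count and interval bounds of TPM, treated as score values; the bounds need not hold the TPM (Myh4 in replicate 1: 10598 TPM, bounds 10362 and 10396). The first quantification's effective length is the length less 99 bases; the second's is less 335.15 and 340.1 for Myh4.

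Second-table values were summed per gene. Ratios used log2(TPM + 0.1), with a mean expected count of at least 50 for genes counted as background. Rescaled TPM divides by the sum over 22015 nuclear protein-coding genes. Windows, coding identity and promoter motifs came from the GENCODE transcripts and RefSeq promoters. Depth was 36952277 and 38754338 expected counts, so a count of 0 allows 3 counts, or 0.0812 and 0.0774 CPM; Wilson intervals and floors cover counting error only, since no molecular identifiers are named. Named were all 6 members, their transcripts with a mean of at least 1 TPM in either table, every gene overlapping the span, and up to 4 genes of each list: the 2 highest, the lowest and the largest ratio at a mean of at least 1 TPM. No gene was named for a like pattern, because over 2 libraries any pair correlates at 1 or -1. All 98 symbols of the 16 lists were found; some results on listed genes are not reported here, and some genes stand in more than 1 list, such as Mylpf, Myog, Myh6, Myh7 and Myh15. Members and lists were chosen with earlier results of these data known. The calculations were tested on simulated data. Tools were Python 3.11.15, numpy 2.4.6, pandas 2.3.3, scipy 1.17.1, biopython 1.88 and matplotlib 3.10.9.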

Additional observations from a re-analysis of the deposited data

How the results depend on the processing

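Over 51 results and 264 alternative values, none turned the direction of a called value. Few could, since 1 member was called between the animals and 0 between the quantifications. With TPM as deposited, uncalled ratios of second over first changed sign for Myh3, Myh2, Myh4 and Myh13, from -0.33 to 0.38 for Myh4. Of the 264, 167 stayed within the spread between the animals or on the same side of the line used. With 2 animals, a value without 1 of them lies within 1 SD of the mean by arithmetic, so its staying there tests nothing. The exceptions among the main results, with the values without 1 animal, were these. In the second quantification's TPM, the cluster portion of Myh1 was 13.5% in place of 8.37%, and that of Myh4 81.6% in place of 86.8%. Without 1 animal in turn, the Myh1 portion ranged from 6.34% to 10.4% and that of Myh4 from 84.7% to 88.8%. The mean log2 ratio of second over first quantification for Myh1 was 0.46. It was 1.17 with TPM as deposited and -0.37 without Myh1-204, a setting added after seeing the data, and ranged from 0.46 to 0.47 without either animal. Genes at least 1.5-fold apart between the animals numbered 1225, or 10.5% of 11632. They numbered 5042 with no filter, 583 with the minimum mean count raised to 200 and 612 with a pseudocount of 1 TPM. Genes at least 2-fold apart numbered 328 (2.82%), and 2045, 146 and 132 under the same settings. Genes whose quantifications differed numbered 430, or 3.93% of 10939, and 1293 with no filter. A changed filter also changes how many genes are tested, so these counts cannot be compared as shares. The counts of members past 1.5-fold and 2-fold between the animals (1 and 0) were the same with no filter, a minimum of 200, a pseudocount of 1 TPM and the second quantification. They were not run on rescaled TPM or FPKM, where Myh3 also passed 1.5-fold, at -0.64 and -0.62. The count of members whose quantifications differed (0) was the same with no filter and a minimum of 200, the settings run for it. No paired analysis was possible because there is only 1 group. Depth limits Myh3 and Myh13 most, with at most 1008 and 338 reads in either quantification.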
